A study of Mus musculus with 4 samples.

Results

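A small set of protein-coding genes had reads almost exclusively in mouse bone marrow macrophage cultures that carried an shRNA against lncRNA-COX2, a long noncoding RNA encoded near the cyclooxygenase gene Ptgs2. The genes were selected on their counts in all 4 libraries: at least 1 CPM (the read count scaled to a common total of gene reads) in both libraries with shRNA, and at most 3 reads in each library without it, on an autosome or the X chromosome. This held for 32 genes out of 37681 in the tables, or 0.323% of the 9892 coding autosomal or X-linked genes with at least 1 CPM in both libraries with shRNA. The opposite rule, at least 1 CPM in both libraries without shRNA and at most 3 reads in each library with it, was met by 43 genes, or 0.433% of 9924. Since the counts with and without shRNA chose the genes, that contrast is described here and not tested.

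The series measured mRNA by sequencing in cells grown from the bone marrow of C57BL/6 wild-type mice in medium with L929 supernatant, which supplies the macrophage growth factor M-CSF. The groups were shRNA with Pam3Cys4 (100 nM, 5 h), shRNA unstimulated, no shRNA with Pam3Cys4 (100 nM, 5 h) and no shRNA unstimulated. There was 1 library per group, with 59400238, 65826838, 51979051 and 47385277 gene reads in that order. Pam3Cys4 is a synthetic lipopeptide sensed by TLR2 together with TLR1. The titles of the libraries without shRNA hold the letters EV, which the labels do not spell out, and it is not known if they had received a control vector. The number of shRNA sequences, of cell clones and of mice is not given in the labels either, and the level of the targeted RNA was not analysed here. With 1 library per group no difference was checked against replicates, no p-value is given, and every interval covers counting error only.

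The 32 genes include some that are known from tissues other than blood, such as the heart factor Tbx20 and the neuropeptide gene Npy, and others that many tissues express, such as Nedd4. Tissue-restricted genes, such as many developmental transcription factors and neuropeptides, are usually silent in macrophages. Their transcription is commonly controlled by lineage-specific enhancers, by Polycomb repression and by DNA methylation. Promoters of 4 of the genes are shown because they belong to the genes with the most reads (Tspan7 and Npy) and to those with the lowest and the highest ratio after Pam3Cys4 (Slitrk5 and Cav1). Each run covers 250 bases before to 50 bases after a RefSeq start site in GRCm38.p6, on the plus strand, with CpG dinucleotides in capitals. The windows are chrX:10484866-10485165, chr6:49822460-49822759, chr14:111675777-111676076 and chr6:17306085-17306384, and for Cav1 the first of 2 listed start sites is shown.
Tspan7: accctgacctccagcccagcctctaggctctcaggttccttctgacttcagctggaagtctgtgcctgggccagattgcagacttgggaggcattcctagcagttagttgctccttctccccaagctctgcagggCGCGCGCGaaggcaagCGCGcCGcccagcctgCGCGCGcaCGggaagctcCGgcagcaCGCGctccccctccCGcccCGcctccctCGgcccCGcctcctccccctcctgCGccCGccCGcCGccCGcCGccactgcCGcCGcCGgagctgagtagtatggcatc
Npy: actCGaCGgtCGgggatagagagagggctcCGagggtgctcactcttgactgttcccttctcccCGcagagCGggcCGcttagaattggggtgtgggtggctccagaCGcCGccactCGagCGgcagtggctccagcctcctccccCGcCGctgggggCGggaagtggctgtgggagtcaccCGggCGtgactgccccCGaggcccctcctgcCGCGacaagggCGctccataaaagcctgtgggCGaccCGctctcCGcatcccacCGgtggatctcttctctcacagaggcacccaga
Slitrk5: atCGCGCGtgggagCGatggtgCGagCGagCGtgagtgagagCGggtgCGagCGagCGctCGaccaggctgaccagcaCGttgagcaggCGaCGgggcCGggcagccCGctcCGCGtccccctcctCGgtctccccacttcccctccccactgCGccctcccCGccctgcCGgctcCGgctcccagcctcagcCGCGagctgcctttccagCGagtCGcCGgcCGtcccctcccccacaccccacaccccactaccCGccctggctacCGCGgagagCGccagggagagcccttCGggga
Cav1: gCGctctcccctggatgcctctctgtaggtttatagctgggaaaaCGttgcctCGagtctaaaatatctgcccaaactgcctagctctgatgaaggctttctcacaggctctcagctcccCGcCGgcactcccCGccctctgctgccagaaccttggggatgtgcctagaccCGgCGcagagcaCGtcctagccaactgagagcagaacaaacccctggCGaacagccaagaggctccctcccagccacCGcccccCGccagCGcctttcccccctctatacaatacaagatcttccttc

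These 4 windows held 27 CpG (Tspan7), 24 (Npy), 35 (Slitrk5) and 13 (Cav1), with observed over expected CpG of 0.769, 0.693, 0.868 and 0.535. Slitrk5 had the densest and Cav1 the sparsest CpG content of the 4. RefSeq promoters were matched by symbol for 25 of the 32 genes. Taking the first listed start site, the median observed over expected CpG was 0.693 over these 25 genes (range 0.128 to 1.14) and 0.795 over 7968 coding genes with at least 1 CPM in both libraries with shRNA. A value of at least 0.6 was found in 15 of 25 (60.0%) and in 77.9% of the 7968. Npy held the median of the 25, and the lowest value was that of the kallikrein gene Klk1b11.

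Together the 32 genes had 31648 reads in the shRNA Pam3Cys4 library and 45531 in the shRNA unstimulated library, against 15 and 23 reads in the no shRNA Pam3Cys4 and unstimulated libraries. Of the 32 genes, 15 had no read in either library without shRNA, and 17 had 1 to 3 reads in at least 1 of them, so a few reads were present there for many. A count of 0 allows up to 3 reads in that library, or 0.0577 CPM (Pam3Cys4) and 0.0633 CPM (unstimulated) without shRNA. In these bulk samples, a lower number of cells that express a gene and less RNA per cell cannot be told apart. The selection itself set a gap between the shRNA states for every gene. The lowest count with shRNA was 68, for Filip1 after Pam3Cys4, and the highest count without shRNA was 3.

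**Figure D1:**
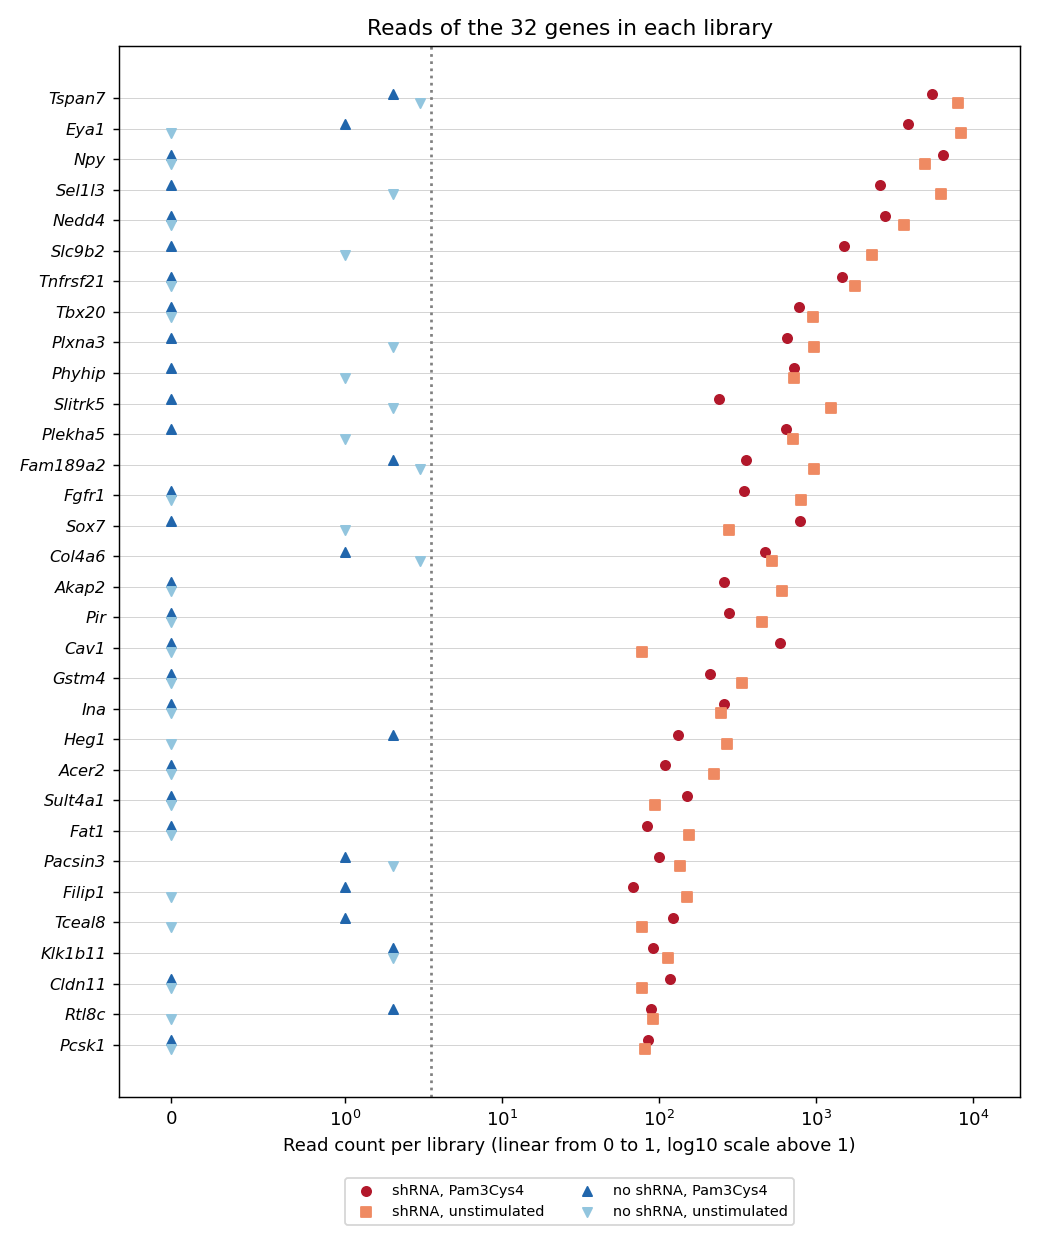
Reads of each of the 32 genes (rows, ordered by mean CPM with shRNA) in the 4 libraries, on an axis that is linear from 0 to 1 and log10 above 1. The dotted line marks the limit of 3 reads; circles and squares (shRNA) lie at 68 reads or more, and triangles (no shRNA) at 3 reads or fewer, a separation that the selection itself set.

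Levels within the set were uneven. The 5 genes with the highest mean CPM, Tspan7, Eya1, Npy, Sel1l3 and Nedd4, held 66.2% of the set's reads in the shRNA Pam3Cys4 library and 68.4% in the shRNA unstimulated library. The median level of the 32 genes was 5.28 CPM after Pam3Cys4 and 7.40 CPM unstimulated with shRNA, against 31.3 and 34.2 CPM over the 9892 coding genes. Per kilobase of exon, which allows levels to be compared between genes, the median over both libraries with shRNA was 1.43 CPM per kb for the set and 7.17 for the 9892 genes. Only Npy (162 CPM per kb), Tspan7 (15.1) and Eya1 (12.2) exceeded that second median. Npy, with a short transcript of 0.566 kb, stood at percentile 97.9 of the 9892 genes.

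Transcription factors and co-factors were represented by Eya1, Tbx20 and Sox7. Eya1, a co-activator with phosphatase activity that is needed for kidney and inner ear development, had 3812 reads (Pam3Cys4) and 8317 reads (unstimulated) with shRNA, against 1 and 0 reads without. Tbx20, a T-box factor of heart development, had 777 (Pam3Cys4) and 950 (unstimulated) reads with shRNA and none without, at least 238-fold and 248-fold higher when the zeros are set to 3 reads. Sox7, a factor of endothelial cells and early endoderm, had 784 (Pam3Cys4) and 277 (unstimulated) reads with shRNA, against 0 and 1 without. Eya1 was the most abundant of the 3 in both libraries with shRNA, and Sox7 was the only one with more reads after Pam3Cys4 than unstimulated.

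Eya1 acts within a network of developmental transcription factors, so the wider network was looked at. Of 16 listed genes of that network, 12 had at most 3 reads in each library without shRNA, and Eya1 was the only one selected. The share of all coding genes with so few reads is not given here, so nothing is read from the 12. Eya3 had 5911 and 6244 reads with shRNA and 5104 and 4786 without (Pam3Cys4 and unstimulated in both pairs), so a relative of Eya1 was read at a like level in all libraries. Eya4 had 15.1 and 35.1 CPM with shRNA against 2.12 and 12.4 CPM without, and Pax3, a developmental transcription factor, had 1502 and 2079 reads against 319 and 654. Six5 went the other way, with 0.455 and 0.456 CPM with shRNA against 1.02 and 7.09 CPM without. Of the list's measured genes, Eya1 included, 3 of 4 passed 2-fold upwards with shRNA and 0 downwards after Pam3Cys4, and 3 of 5 upwards and 1 downwards unstimulated. Over all coding genes with 5 CPM in the higher library the shares were 9.04% upwards and 5.60% downwards after Pam3Cys4. Unstimulated, they were 7.04% and 4.92%. The upward call of Eya1 was set by the selection, and the list was looked at because of Eya1. The other genes of the list that passed upwards were Eya4 and Pax3. Nothing is therefore read from the counts of this list beside those shares.

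The neuropeptide gene Npy had 6415 reads after Pam3Cys4 and 4954 unstimulated with shRNA, and 0 in both libraries without shRNA. Neuropeptide Y is a transmitter of hypothalamic and sympathetic neurons. Set against 3 reads, Npy was at least 1968-fold higher in the shRNA Pam3Cys4 library and at least 1292-fold higher in the unstimulated one. Pcsk1, a convertase that cuts hormone and neuropeptide precursors, was read far less, with 85 (Pam3Cys4) and 81 (unstimulated) reads with shRNA and 0 and 0 without. Of 32 listed neuropeptide and receptor genes, 22 others than Npy were at 0 in all 4 libraries, among them the receptors Npy1r, Npy2r, Npy4r and Npy5r. Npy was the only one of the list that reached 5 CPM in any library.

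Surface receptors and adhesion proteins formed the largest group, with 9 genes. Tspan7, a tetraspanin that organises membrane proteins, had 5436 reads (Pam3Cys4) and 8029 (unstimulated) with shRNA, against 2 and 3 without. Tnfrsf21, which encodes death receptor 6, had 1456 and 1765 reads with shRNA and none without. Fgfr1, a receptor tyrosine kinase for fibroblast growth factors, had 348 and 794 reads with shRNA and none without, and its relatives Fgfr2, Fgfr3 and Fgfr4 had at most 2 reads in any library. Fgfr1 was thus the only one of the 4 receptor genes with more than traces of reads.

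Slitrk5, a leucine-rich repeat protein of synapses, had 241 reads after Pam3Cys4 and 1236 unstimulated with shRNA, against 0 and 2 without. Its 5 relatives Slitrk1, Slitrk2, Slitrk3, Slitrk4 and Slitrk6 were at 0 in all 4 libraries. Plxna3, a semaphorin co-receptor, had 650 (Pam3Cys4) and 973 (unstimulated) reads with shRNA against 0 and 2 without, whereas its relative Plxna1 was abundant in both states (847 and 699 CPM with shRNA, 334 and 261 without). Col4a6, a chain of basement membrane collagen, had 472 and 522 reads with shRNA against 1 and 3 without. Its partner chain gene Col4a5, which lies next to it head to head, had 881 and 813 reads with shRNA and 654 and 763 without, so these neighbours differed in whether they were read without shRNA. The other 3 of the group were low: Heg1, a transmembrane protein of heart and vessels (2.22 and 4.12 CPM with shRNA), Fat1, a giant protocadherin (1.41 and 2.35 CPM), and Cldn11, a tight junction claudin (1.97 and 1.18 CPM).

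Nedd4, Cav1 and Pacsin3 act in ubiquitin tagging, caveolae and membrane bending. Nedd4, a HECT-type ubiquitin ligase, had 2756 reads (Pam3Cys4) and 3640 (unstimulated) with shRNA and none without, at least 845-fold and 949-fold higher against 3 reads. Its closest relative Nedd4l had 50.8 and 79.0 CPM with shRNA and 10.4 and 13.5 CPM without, so a related ligase was read in both states. Of 10 measured genes of the NEDD4 family and its adaptors, Nedd4 included, 3 passed 2-fold upwards with shRNA and 1 downwards after Pam3Cys4, and 2 upwards and 1 downwards unstimulated. Since that contrast chose the set, nothing is read for the 32 genes from these counts or from the shares over all coding genes given above. Cav1, the main protein of caveolae, had 588 reads after Pam3Cys4 and 77 unstimulated with shRNA, and none without. Pacsin3 was low, with 99 and 135 reads with shRNA against 1 and 2 without.

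Cytoskeletal and scaffold genes were Plekha5, Akap2, Ina and Filip1, at 1.14 to 10.8 CPM. Plekha5, a protein with a pleckstrin homology domain, had 643 (Pam3Cys4) and 714 (unstimulated) reads with shRNA against 0 and 1 without. Ina, a neuronal intermediate filament protein, had 258 and 246 reads with shRNA and none without. Nefh, another neurofilament gene, went the other way, with 3 and 25 reads with shRNA against 972 and 1599 without. Akap2, a protein kinase A anchor, had 260 and 609 reads with shRNA and none without.

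Transporters and enzymes ranged lower still, apart from Slc9b2. Slc9b2, a sodium/proton antiporter known from osteoclasts, had 1496 reads (Pam3Cys4) and 2264 (unstimulated) with shRNA, against 0 and 1 without. The others were Pir, an iron-binding nuclear protein (279 and 452 reads with shRNA), Gstm4, a glutathione transferase (210 and 336), Acer2, a Golgi ceramidase (108 and 224), Sult4a1, a brain sulfotransferase (151 and 94), and Klk1b11 (91 and 113). Less characterised genes were Sel1l3 (2546 and 6213 reads with shRNA), Fam189a2 (358 and 971), Phyhip (716 and 722), Tceal8 (123 and 78) and Rtl8c (89 and 91). Genes with near-identical copies, here Klk1b11, Gstm4, Rtl8c and Tceal8, are uncertain, because reads that align to several places were not assigned to a gene. Counts of Ina, Akap2 and Rtl8c are uncertain too, because each overlaps another coding gene in GENCODE vM21. Another 4 genes overlap an antisense gene, which had at most 1 read for Cav1, Fgfr1 and Heg1 and was not analysed here for Fat1, and the strand setting of the counting is not given in the sources used here.

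Close relatives of the set were examined for whether another family member was read in the cells without shRNA. The 63 relatives, of 24 of the genes, were listed by hand after the set was known. Of these, 21 reached 1 CPM in at least 1 library of both states, 0 did so only with shRNA, 2 only without it, and 40 in neither. The 2 were Nefh and Pacsin1. For 16 of the 24 genes at least 1 relative was read without shRNA.

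Ratios after Pam3Cys4 ran in both directions. With shRNA present, 2 of the 32 genes were at least 2-fold higher after Pam3Cys4 with a counting interval above 1, Cav1 and Sox7, and 3 were at least 2-fold lower with an interval below 1, Slitrk5, Fam189a2 and Sel1l3. These are 6.25% and 9.38% of the set, against 5.50% higher and 3.87% lower of the 9892 coding genes with at least 1 CPM in both libraries with shRNA. The 2 higher genes are a share close to that background, and the 3 lower genes are few. The median log2 ratio of Pam3Cys4 over unstimulated was -0.14 for the set (quartiles -0.76 and 0.29) and 0.00 for the 9892 genes (quartiles -0.30 and 0.30). The ratio was below 1 for 19 of the 32 genes (59.4%), against 50.0% of the 9892. Without shRNA the response of these genes could not be measured, as their counts were 0 to 3.

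**Figure D2:**
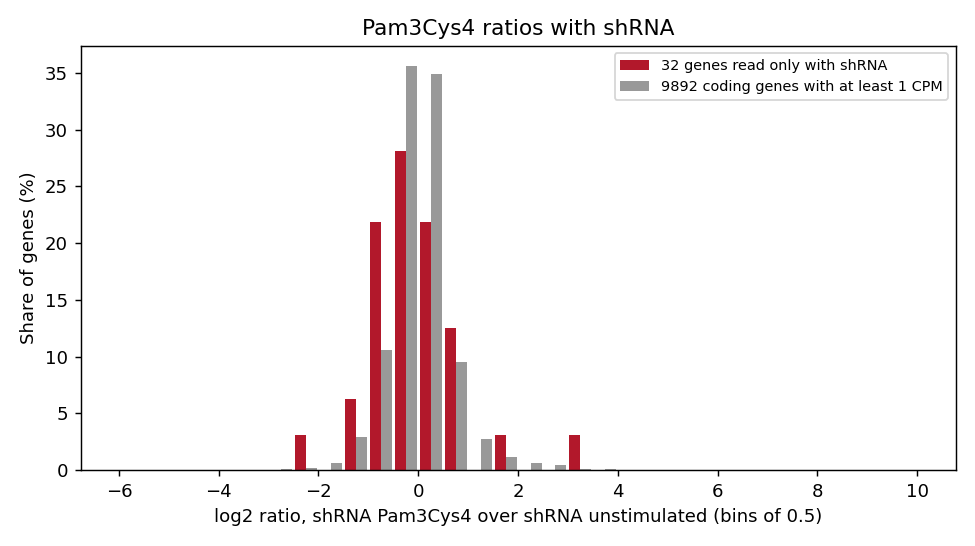
Share of genes (%) per bin of 0.5 in the log2 ratio of Pam3Cys4 over unstimulated with shRNA, for the 32 genes (red) and the 9892 coding genes with at least 1 CPM in both libraries (grey). The 32 genes have a median of -0.14, with Slitrk5 at the low end and Cav1 at the high end, and the 9892 genes a median of 0.00.

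Cav1 had the largest ratio: its level was 9.90 CPM after Pam3Cys4 and 1.17 CPM unstimulated with shRNA, 9.27-fold higher on TMM-scaled counts (95% counting interval 7.30 to 11.9). Sox7 was at 13.2 CPM after Pam3Cys4 and 4.21 CPM unstimulated, 3.44-fold higher (2.99 to 3.95). Slitrk5 had the opposite pattern, 4.06 CPM after Pam3Cys4 and 18.8 CPM unstimulated, 4.23-fold lower (3.68 to 4.87). Both libraries with shRNA met the minimum of 1 CPM for these 3 genes, but Cav1 did so only narrowly without stimulation.

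Other genes had smaller ratios. Npy was 1.57-fold higher after Pam3Cys4 (1.51 to 1.63), and Sult4a1 (1.95-fold), Tceal8 (1.91-fold) and Cldn11 (1.82-fold) were also higher with intervals above 1. Sel1l3 was 2.01-fold lower (1.92 to 2.11), just past the 2-fold limit, and Fam189a2 was 2.23-fold lower (1.98 to 2.53). Eya1 was lower by a log2 ratio of -0.85 (-0.90 to -0.79). Fgfr1 (1.88-fold) and Akap2 (1.93-fold) were lower and passed 2-fold only when library totals were the only scaling, which shifts every log2 ratio by -0.13. Tnfrsf21 and Tbx20 had log2 ratios of 0.00 (-0.10 to 0.10) and -0.01 (-0.15 to 0.13). No gene with a mean level of 1 to 5 CPM passed 2-fold (0 of 13, against 5.21% higher and 8.69% lower of 1151 coding genes at that level), so all 5 that passed came from the 19 genes at 5 CPM or more. Of these 19 genes 2 were higher and 3 lower, beside 5.54% higher and 3.24% lower of 8741 coding genes at 5 CPM or more. In all, the counting interval lay below 1 for 16 genes, above 1 for 8 and on both sides of 1 for 8. Intervals below and above 1 were thus found for 50% and 25% of the set. Of the 9892 coding genes, 40.8% had an interval below 1 and 40.1% above 1, so intervals that excluded 1 were common among all genes.

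**Figure D3:**
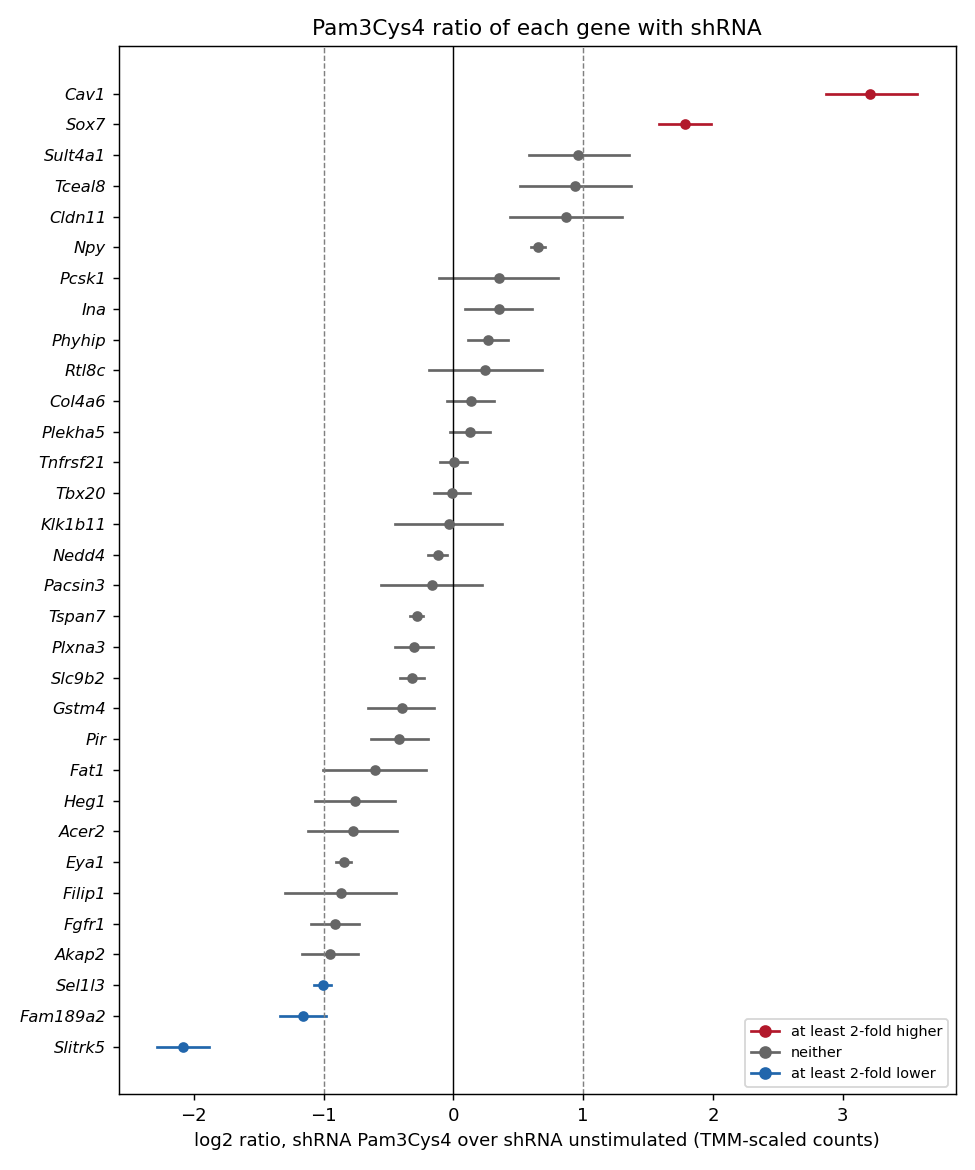
Log2 ratio of TMM-scaled counts, shRNA Pam3Cys4 over shRNA unstimulated, for each of the 32 genes, with 95% counting intervals; dashed lines mark 2-fold. Cav1 (3.21) and Sox7 (1.78) lie to the right, Slitrk5 (-2.08), Fam189a2 (-1.16) and Sel1l3 (-1.01) to the left, and the other genes between the dashed lines.

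By role, the ratios were mixed. Of the 9 receptor and adhesion genes 1 was at least 2-fold lower and none higher, with log2 ratios of -2.08 to 0.86. The 3 transcription factor genes spanned -0.85 (Eya1) to 1.78 (Sox7), and the 6 transport and enzyme genes -0.77 (Acer2) to 0.96 (Sult4a1). Npy and Pcsk1 had log2 ratios of 0.65 and 0.35, of which the second had a counting interval on both sides of 0.

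The set was spread over the genome. It lay on 15 autosomes and the X chromosome, with 3 genes each on chromosomes 3, 6, 9 and 14 and never more on an autosome. In the order of coding genes along the GRCm38 annotation, none of the 32 had another of the 32 among the 2 coding genes on either side, nor among the 10 on either side. Of all 9892 coding genes, 0.637% had one of the 32 within 2 genes and 3.13% within 10. With shares this small and 32 genes, nothing is read from these zeros. The closest pair, Col4a6 and Tceal8 on the X chromosome, was 47 coding genes apart, and the closest autosomal pair, Nedd4 and Filip1 on chromosome 9, was 59 apart.

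The X chromosome held 6 of the 32 genes, or 18.8%: Tspan7, Plxna3, Col4a6, Pir, Tceal8 and Rtl8c. By comparison, 3.01% of the 9892 coding genes were X-linked, as were 0 of the 43 genes read only without shRNA. Among all measured X-linked genes, 9.96% of 251 passed 2-fold upwards with shRNA after Pam3Cys4 and 8.08% of 260 unstimulated, beside the 9.04% and 7.04% of all coding genes given above. The 6 genes were dispersed, at least 47 coding genes from each other, and their log2 ratios after Pam3Cys4 ran from -0.42 (Pir) to 0.94 (Tceal8). The Y-linked coding genes Kdm5d and Uty also met the count thresholds, as 665 and 730 reads (Kdm5d) and 334 and 320 (Uty) with shRNA stood against 1 and 0, and 0 and 1, without. The X-inactivation RNA gene Xist had at most 2 reads in any library. Ddx3y, also Y-linked, had 1116 and 921 reads with shRNA against 4 and 3 without. Of the other 4 listed Y-linked genes, Eif2s3y went the other way, with 0 and 0 reads with shRNA against 6 and 3 without, and Zfy1, Zfy2 and Usp9y had at most 1 read in any library. Reads of Kdm5d, Uty and Ddx3y thus moved with shRNA state across these 4 libraries, and their part in the selection of the 32 genes was not tested; shRNA and any difference between the source animals or cell lines cannot be told apart in this design.

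Genes beside the 32 were examined after the set was known. Of 128 coding genes within 2 positions of a selected gene, 58 were measured after Pam3Cys4, and of these 11 (19.0%) passed 2-fold upwards with shRNA and 3 (5.17%) downwards, beside 9.04% and 5.60% of all coding genes. Unstimulated, 6 of 57 (10.5%) passed upwards and 2 (3.51%) downwards, beside 7.04% and 4.92%. In both states 5 were higher: Cav2, Bdh2, Pcgf6, Gstm1 and 1110051M20Rik. Tes and Piwil2 were lower in both, at 0.467 and 0.349 (Tes) and 0.282 and 0.291 (Piwil2) of the level without shRNA, after Pam3Cys4 and unstimulated. Cav2, which lies next to Cav1 and encodes its caveolar partner, had 1573 reads (Pam3Cys4) and 1977 (unstimulated) with shRNA, against 427 and 647 without, 3.39-fold and 2.39-fold higher. Bdh2, near Slc9b2, was 3.37-fold and 4.82-fold higher, and Gstm1, a relative of Gstm4, 3.02-fold and 2.99-fold. The median log2 shRNA ratio of the measured neighbours was 0.16 after Pam3Cys4 and 0.08 unstimulated, against 0.05 and 0.02 for all coding genes.

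Promoter motifs were searched on both strands over every listed start site of the 25 genes with a RefSeq promoter. The interferon response element, searched as GAAA and GAAA separated by any 2 bases, was found for 1 gene, Pcsk1, that is 4.0% of the 25 against 4.03% of 7968 coding genes. The STAT site TTCNNNGAA was found for Nedd4 and Heg1 (8.0% against 7.86%), the NF-kB site, searched as GGG, any 2 bases and TTTCC, for none (1.97% of the 7968), and TATAAA for Cav1 (4.0% against 7.98%). The Cav1 match stands in its printed window as TTTATA, which is TATAAA on the strand opposite to the gene. TTCNNNGAA reads the same on both strands, and a match describes letters in the window only. None of 83 matched interferon-stimulated genes and none of 27 matched interferon gamma targets was selected, and with 0.323% of coding genes selected nothing is read from these zeros. Of the measured genes of these lists, 69 of 72 and 14 of 15 passed 2-fold upwards with shRNA after Pam3Cys4, beside 9.04% of all coding genes. Unstimulated, 66 of 69 and 10 of 12 did so, beside 7.04%. At most 3 reads in each library without shRNA were found for 3 of the 83 and 6 of the 27. The share of all coding genes with so few reads is not given here, so nothing is read from these counts.

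Markers of macrophages were abundant in all libraries. Their summed level was 8600 and 7177 CPM with shRNA (Pam3Cys4 and unstimulated) and 8873 and 6825 CPM without, although Cd163 had at most 9 reads. Single markers differed between the shRNA states in both directions. Mertk (7.41 and 39.3 CPM with shRNA against 1.06 and 5.40 without) and Fcgr1 (330 and 165 against 84.2 and 123) were higher with shRNA, as were Cd68 and Spi1. Adgre1 (371 and 194 CPM against 645 and 384) and Itgam (443 and 427 against 942 and 500) were lower. Since several of the 32 genes are known from neurons and endothelium, those lists were compared. Neuronal markers summed to 4.98 and 4.07 CPM with shRNA and 1.06 and 2.22 CPM without, with 5 of 8 (Snap25, Syt1, Stmn2, Gap43 and Nefl) at 0 in all libraries and most of the reads in Map2. Endothelial markers summed to 53.5 and 81.4 CPM with shRNA and 43.4 and 67.6 CPM without, with Emcn at 0 in all libraries and Tek and Cldn5 at no more than 1 read. Vwf made up most of the endothelial sum in every library, at 29.6 and 57.6 CPM with shRNA against 25.2 and 41.0 without. The endothelial receptor gene Kdr had 12.5 and 9.11 CPM with shRNA against 3.67 and 4.14 without. Egfl7 went the other way, with 8.13 and 12.7 CPM against 11.4 and 19.9. Cdh5 was mixed, at 2.98 and 1.84 CPM against 2.65 and 2.38, and Pecam1 had at most 19 reads in any library. Osteoclast markers, relevant to Slc9b2, summed to 235 and 109 CPM with shRNA and 159 and 69.7 CPM without, mostly as Mmp9 and Ctsk. Dcstamp (0.690 and 0.456 CPM with shRNA against 20.3 and 17.4 without) and Ocstamp (4.53 and 5.29 against 9.20 and 10.1) went the other way. Fibroblast, epithelial, erythroid, granulocyte and mast cell lists each summed to less than 1 CPM in every library.

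**Figure D4:**
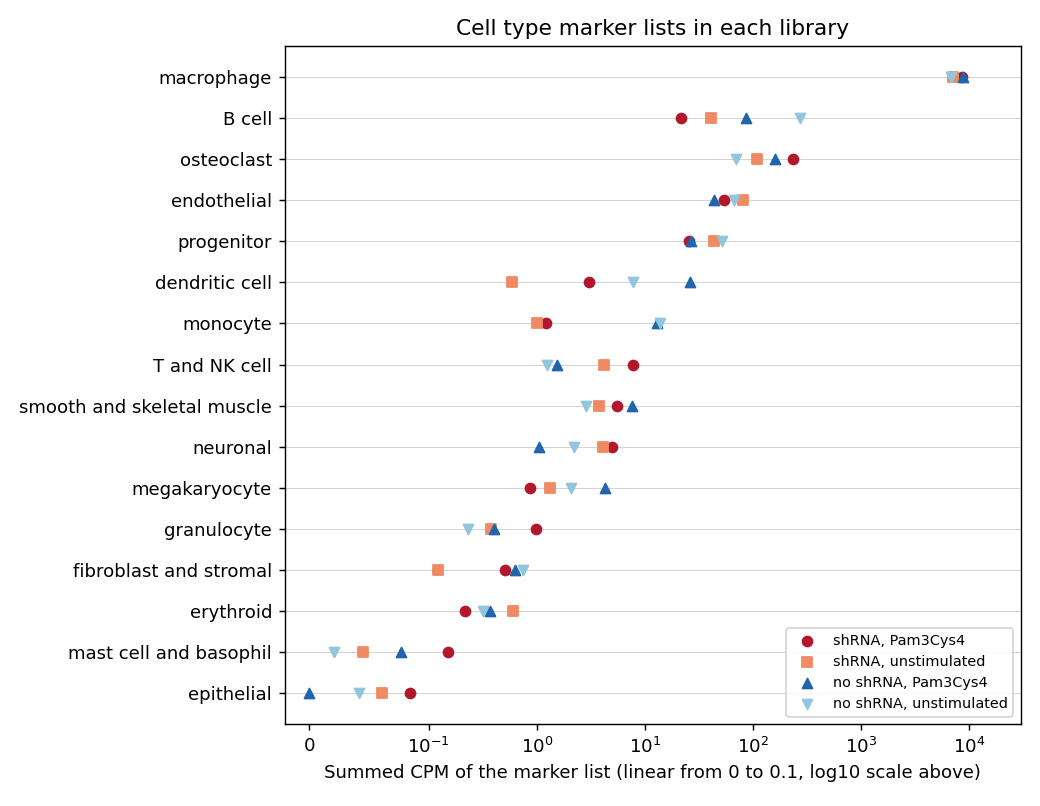
Summed CPM of 16 cell type marker lists in the 4 libraries (axis linear from 0 to 0.1 and log10 above). Macrophage markers lie at 6825 to 8873 CPM in all libraries, neuronal markers at 1.06 to 4.98 CPM, and the sums of the monocyte, dendritic cell and B cell lists lie lower with shRNA (circles and squares) than without (triangles), although Vcan and Xcr1 were higher with shRNA after Pam3Cys4 and Ighm made up nearly all of the B cell sum.

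The summed monocyte, dendritic cell and B cell lists were lower with shRNA, at 1.21 and 1.00 CPM against 13 and 13.8 (monocyte), 3.05 and 0.592 against 26 and 7.75 (dendritic cell) and 21.8 and 41.4 against 87.3 and 271 (B cell), Pam3Cys4 and unstimulated in each pair. Within these lists Vcan (1.04 against 0.693 CPM) and Xcr1 (1.35 against 0.673 CPM) were higher with shRNA after Pam3Cys4. The B cell sum was nearly all Ighm, at 21.7 and 41.2 CPM with shRNA against 87.1 and 270.3 CPM without, and Ebf1 was at 0 in all libraries. The part of these lists in the counts of the 32 genes was not tested.

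Genes next to the limits of the selection are given without a test. Just inside 1 CPM were Filip1 (1.14 CPM in its lower library), Cav1 (1.17) and Cldn11 (1.18). Just outside it were Htr2a (0.896), Ano7 (0.842) and Ttc30a1 (0.825), which otherwise met the rule. At the limit of 3 reads without shRNA, Tspan7, Fam189a2 and Col4a6 were inside with 3 reads in the no shRNA unstimulated library, while Rims2, Unc13d and Htra1 were outside with 4 reads in at least 1 library. Of the 9892 coding genes, 19 had a highest count of 4 to 10 reads without shRNA and 54 had 11 to 30, beside the 32 with at most 3.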

How the data were processed

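Gene counts were made by the authors. The deposited values are raw read counts per gene, 1 table per library, and the tools were CASAVA 1.8, TopHat and HTSeq, with genome build NCBIM37, per the submitters' processing notes. Per the labels, libraries came from an Illumina mRNA kit and were read at 50 bp. Lines that name no gene held 32.5 to 34.4% of all totals, 27.0 to 29.9% for alignments to several places alone, and stayed out of library sizes. Names, biotypes, gene order and exon lengths came from GENCODE vM21 (GRCm38, another build than the counts), which matched 32642 of 37681 IDs, and promoters from RefSeq.

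CPM was computed over gene rows. Ratios used edgeR 4.0.16 TMM factors (0.924, 1.01, 0.972 and 1.10 for shRNA Pam3Cys4, shRNA unstimulated, no shRNA Pam3Cys4 and no shRNA unstimulated), with exact 95% conditional binomial intervals (scipy 1.17.1), and the interval code was tested on simulated data. Genes were called at 2-fold with an interval that excluded 1. Against 0 reads a floor of 3 per library was used. Library totals and DESeq2 1.42.0 size factors were alternatives.

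The genes and lists were chosen with earlier results of these data known. Genes named were the 20 with the highest level, the 10 highest and 10 lowest after Pam3Cys4, members of lists and genes next to a limit; 27 of 32 qualified, and the remaining 5, the relatives, Nefh, the neighbours and other genes outside the set were named after their values were seen. Role groups were assigned from general knowledge after the set was known.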

Additional observations from a re-analysis of the deposited data

Results flagged for a closer look

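The Y-linked genes Kdm5d and Uty lay outside the selected set and differed between the shRNA states. Kdm5d had 665 reads (Pam3Cys4) and 730 reads (unstimulated) with shRNA, against 1 and 0 without. Uty had 334 reads (Pam3Cys4) and 320 reads (unstimulated) with shRNA, against 0 and 1 without. Both were drawn out as data outside the analysed set, not by a limit on the size of that difference.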

How the results depend on the processing

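No paired analysis was possible because each group had 1 library. The number of selected genes was 15 with 0 reads required without shRNA, 51 with at most 10 reads allowed there and 14 with at least 5 CPM with shRNA, against 32. The number of genes at least 2-fold higher after Pam3Cys4 (2) was 0 with 5 CPM in both libraries, 4 with 1 CPM in either library and 1 with 0 reads without shRNA. The number at least 2-fold lower (3) was 5 with library totals, 1 at 3-fold, 7 with 1 CPM in either library, 0 with 0 reads without shRNA and 5 with at most 10 reads. Of the 9892 coding genes, 4.53% were higher and 5.27% lower with library totals, against 5.50% and 3.87%, so the background moved too. For changed limits on fold, reads or CPM no such share is given, and nothing is read from those counts. With at most 10 reads allowed, 2 selected genes had another within 2 coding genes, against 0. At 3-fold the same 32 genes were held to a stricter limit, library totals shift all log2 ratios by -0.13, and the other settings let fewer or more genes enter. The median log2 ratio was -0.28 with library totals, -0.16 with DESeq2 size factors, and -0.23 without the 6 genes of uncertain counting, an alternative chosen after seeing the data. Over the 9892 coding genes the median was -0.13 with library totals and -0.02 with DESeq2 size factors. With library totals, single-gene ratios moved beyond their counting interval for 7 of 32 genes and with DESeq2 size factors for none of the 32, and no called ratio changed direction. Depth limits genes near 1 CPM, where a library held as few as 68 reads.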
